A study of Nannochloropsis oceanica with 36 samples.

Results

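Diacylglycerol acyltransferase (DGAT) carries out the last step of triacylglycerol synthesis, in which an acyl group from acyl-CoA is joined to diacylglycerol. Enzymes of type 1 are membrane proteins of the endoplasmic reticulum that share no sequence origin with those of type 2, and phospholipid:diacylglycerol acyltransferase makes the same product without acyl-CoA. Oleaginous algae such as Nannochloropsis store triacylglycerol in lipid droplets when nitrogen runs short, so this step is a common target of study in them. The gene model described here is isotig00738.DGAT1A, whose symbol is that of a type 1 enzyme. It was picked by its identifier, 1 of 9756 gene models, and no other identifier held a gene symbol.

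Messenger RNA came from whole cells of Nannochloropsis oceanica strain IMET1, a unicellular marine alga (a eustigmatophyte), which was the background of all groups. Mid-logarithmic cells were washed in seawater and moved in equal numbers to nitrogen-deprived (N-deprived) or nitrogen-replete (N-replete) medium, both under continuous light at 25 °C with 1.5% CO2 in air. The 6 N-deprived groups were sampled at 3, 4, 6, 12, 24 and 48 h after transfer, and the 6 N-replete groups at the same times. Each group held 3 biological replicates, which made 36 libraries, and the level of a model was given as FPKM (sequenced fragments scaled by the length of the transcript and by the mapped fragments of the library).

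The DGAT1A model stood alone on its own sequence, isotig00738, from position 1 to position 2030, a name used for assembled transcripts and not for the scaffolds that carry all other models. The files gave it no exons and no strand, and the genome build was not given in the sources used here. Whether the same gene is also modelled on a scaffold is not stated in the files. The other genes of triacylglycerol and fatty acid synthesis could not be described, because of the list of such genes only DGAT1A itself was found among the identifiers.

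Libraries summed to between 475304 and 629498 FPKM. Total fragment numbers were unknown. Relative depths fitted to the low values made 96.7% of 1441 values from 65 low genes whole numbers of fragments within 0.1. The depths were chosen to raise this share, and only genes with most values already whole were counted. The share is therefore no separate test of the fit. The fitted depths were 0.718 to 1.42 in all but 1 library, N-replete 24 h replicate 1, at 2.69. Total depth is ambiguous by a factor of 2 in this kind of fit. At a depth of 1.34 that library had 53.5% of 43 values whole, against 90.7% at 2.69. At 0.5 times the fitted depth odd numbers of fragments are no longer whole. With the units of the genes held, a library fitted at 2 times its depth would have only even numbers and lose few whole values. The 53.5% is lower than that. The units were fitted together with the depths, though, so this is no separate test of the 2 depths. The share at 0.5 times the fitted depth was lower in every library, at 17.3% to 57.9%. At the fitted depths the share was lowest in replicate 3 of 12 h, at 76.9% for the N-deprived library and 84.4% for the N-replete library. The 6 libraries of 12 h stood apart in both media: their median model was at 17.6 to 20.7 FPKM, against 24.3 to 30.9 FPKM in the other 30 libraries. Levels of DGAT1A set between 12 h and another time therefore depend on the scaling, and the values with the libraries centred are given beside such results.

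DGAT1A transcripts were more abundant in N-deprived than in N-replete cells at each of the 6 times. Whether more cells held the transcript or each cell held more of it cannot be told apart in bulk RNA, and FPKM is a share of the library. At 3 h the libraries stood at 49.7, 54.1 and 47.4 FPKM in N-deprived medium and at 31.0, 29.8 and 30.1 FPKM in N-replete medium. At 4 h they stood at 41.0, 44.2 and 43.1 FPKM in N-deprived and 25.2, 22.8 and 26.3 FPKM in N-replete medium. The media did not overlap at either time. At 6 h, the low point of both media, N-deprived libraries were at 35.7, 36.5 and 34.7 FPKM and N-replete libraries at 17.8, 19.2 and 19.4 FPKM. At 12 h the N-deprived libraries stood at 46.7, 49.2 and 49.3 FPKM and the N-replete libraries at 28.3, 29.2 and 30.0 FPKM. As deposited, the libraries of 12 h overlapped those of 3 h within each medium. At 24 h the N-deprived libraries were at 56.3, 54.6 and 56.7 FPKM and the N-replete libraries at 21.2, 20.3 and 23.98 FPKM. At 48 h the N-deprived libraries were at 67.7, 66.2 and 56.9 FPKM and the N-replete libraries at 27.3, 26.0 and 29.6 FPKM. Replicate 3 was the lowest N-deprived library at 48 h, and the gap between the media there was still 27.3 FPKM.

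**Figure D1:**
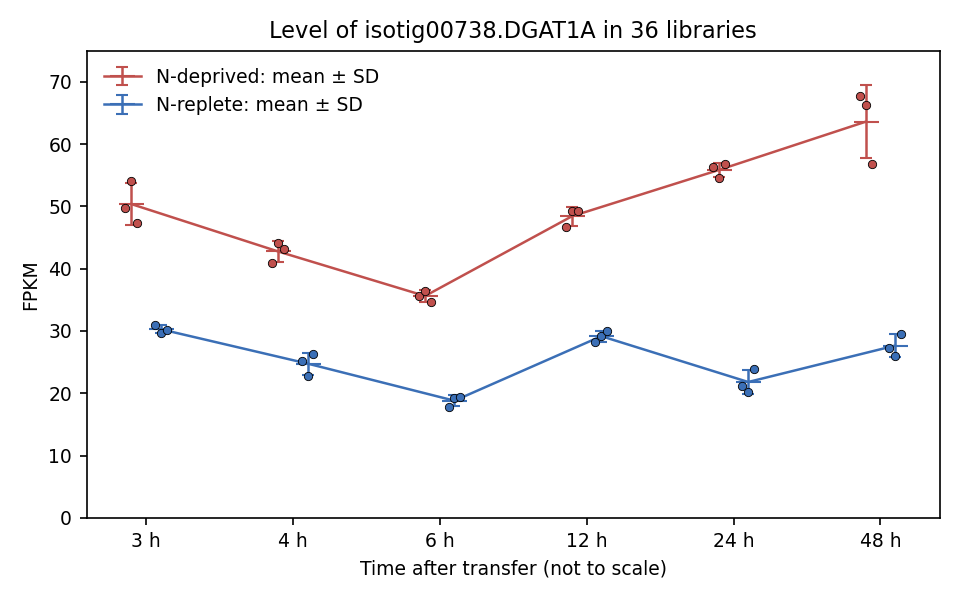
FPKM of isotig00738.DGAT1A (y axis) at each time after transfer (x axis, not to scale), with a point for each library and the mean ± SD of 3 libraries for N-deprived (red) and N-replete (blue) cells. As deposited, all N-deprived points lie above all N-replete points, both courses are lowest at 6 h, and they part after 12 h.

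All 18 N-deprived libraries lay above all 18 N-replete libraries: the lowest N-deprived value was 34.7 FPKM at 6 h and the highest N-replete value 31.0 FPKM at 3 h. Such a separation, higher in N-deprived medium, was found for 75 of 9647 genes tested, or 0.777%. Within each time it was more common: N-deprived libraries lay above N-replete libraries for 36.8% of genes at 3 h, 30.3% at 4 h, 27.1% at 6 h, 35.3% at 12 h, 42.3% at 24 h and 47.8% at 48 h, and for 8.08% of genes at all 6 times. The separation of 18 from 18 libraries was lost for DGAT1A when libraries were centred on their median ratio or quantile normalized, which raised those of 12 h. Without the 12 h libraries, the other 15 N-deprived libraries lay above the other 15 N-replete libraries under every scaling run, as they did for 219 genes (2.27%) with the values as deposited.

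On the log2(FPKM + 1) scale the effect of N deprivation, N-deprived minus N-replete, was 0.71 (SE 0.069) at 3 h, 0.77 (SE 0.069) at 4 h, 0.89 (SE 0.069) at 6 h and 0.71 (SE 0.069) at 12 h. It was 1.32 (SE 0.069) at 24 h and 1.17 (SE 0.069) at 48 h. Each passed in limma's moderated test over all genes, with a Benjamini-Hochberg adjusted p of 5.07e-10, 1.26e-10, 6.57e-12, 2.43e-10, 6.60e-17 and 8.45e-16 in order of time. In linear FPKM the ratio of the means was 1.66 ± 0.068 (SE, n = 3 each) at 3 h, 1.73 ± 0.081 at 4 h, 1.89 ± 0.057 at 6 h, 1.66 ± 0.042 at 12 h, 2.56 ± 0.13 at 24 h and 2.30 ± 0.15 at 48 h. An exact permutation test of 3 against 3 libraries gave a two-sided p of 0.1 at each time, the smallest that this design allows. Nothing in the labels says whether a replicate number follows 1 culture over time. If it does, the 3 N-deprived cultures averaged 49.5, 50.8 and 48.0 FPKM over time and the 3 N-replete cultures 25.1, 24.5 and 26.6 FPKM, again with the smallest exact p of 0.1.

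**Figure D2:**
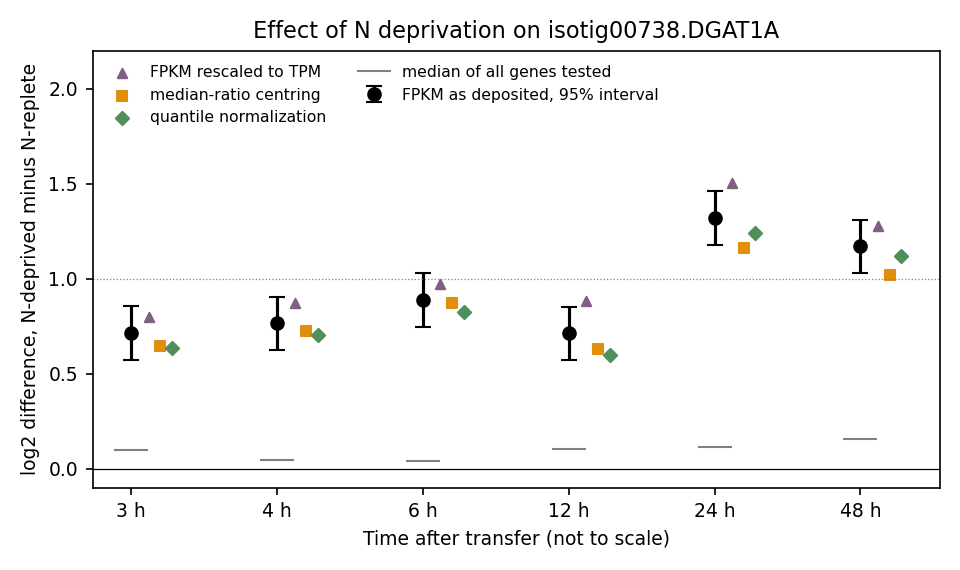
Log2 difference of isotig00738.DGAT1A, N-deprived minus N-replete (y axis), at each time (x axis, not to scale), as deposited with its 95% interval (black) and under 3 other scalings, with the median of all genes tested as a grey bar and 2-fold as a dotted line. The effect is above 0 at each time under each scaling drawn and above 2-fold at 24 and 48 h.

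Being higher in N-deprived medium is common in these data, so the size of the effect was set beside that of all genes. At an adjusted p under 0.05, 28% of genes were higher in N-deprived medium at 3 h, 20.6% at 4 h, 19.5% at 6 h, 38.7% at 12 h, 41.3% at 24 h and 46.1% at 48 h. DGAT1A was 1 of 667 genes (6.91%) called higher at all 6 times. From the highest log2 difference down it ranked 377 of 9647 at 3 h, 244 at 4 h, 171 at 6 h, 967 at 12 h, 357 at 24 h and 681 at 48 h. It was thus nearest the top at 6 h, although its own effect was larger at 24 and 48 h. At least 2-fold rises were called for 7.01% of genes at 24 h and 10.7% at 48 h, DGAT1A among them, and for 1.17% at 3 h, 1.29% at 4 h, 1.29% at 6 h and 4.13% at 12 h, without it. Averaged over all times, the effect of 0.93 (SE 0.028; limma, adjusted p = 1.21e-23) ranked 270 of 9647, where 48.2% of genes had a positive mean effect at an adjusted p under 0.05. The median log2 difference of all genes lay between 0.04 at 6 h and 0.16 at 48 h, and relative to it DGAT1A was higher by 0.61 at 3 h, 0.72 at 4 h, 0.84 at 6 h, 0.61 at 12 h, 1.21 at 24 h and 1.01 at 48 h.

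On average the effect was larger late than early, through 24 and 48 h, since at 12 h it was no larger than at 3 h. Its mean at 12, 24 and 48 h exceeded that at 3, 4 and 6 h by 0.28 on the log2 scale (SE 0.056; limma, adjusted p = 7.62e-05), a direction called for 37.5% of genes. With median-ratio centring this was 0.19 (SE 0.048; adjusted p = 0.00101), and with quantile normalization 0.27 (SE 0.048; adjusted p = 1.9e-05). The interaction of medium and time passed (limma F test, adjusted p = 1.16e-06; 83.7% of genes). From 12 to 24 h the effect grew by 0.61 (SE 0.097; limma, adjusted p = 6.68e-06; 26.9% of genes in this direction), and by 0.53 to 0.64 under the other scalings. The changes of the effect between 3 and 4 h (0.05, 95% interval -0.15 to 0.25), 4 and 6 h (0.12, -0.08 to 0.32), 6 and 12 h (-0.17, -0.37 to 0.02) and 24 and 48 h (-0.15, -0.35 to 0.05) did not pass (limma, adjusted p = 0.937, 0.537, 0.171 and 0.245). Calls in the direction of each of these estimates were made for 0.529%, 4.09%, 12.6% and 18% of genes. With median-ratio centring the change from 6 to 12 h passed, at -0.24 (adjusted p = 0.0243), and with quantile normalization at -0.23 (adjusted p = 0.0382). The change from 24 to 48 h passed with FPKM rescaled to an equal sum per library, at -0.23 (adjusted p = 0.0447).

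Within each medium the level changed with time (limma F test, adjusted p = 1.79e-11 in N-deprived and 2.79e-10 in N-replete cells), as it did for 99.5% and 99.3% of genes. DGAT1A fell from 3 to 4 h and again from 4 to 6 h in both media: in N-deprived cells by 0.23 and 0.26 on the log2 scale (SE 0.069 each; limma, adjusted p = 0.00904 and 0.00202), and in N-replete cells by 0.28 and 0.38 (SE 0.069 each; adjusted p = 0.00156 and 3.32e-05). Falls were called for 15.5% and 31.3% of genes at these steps in N-deprived cells and for 13.8% and 26.8% in N-replete cells, and at all 4 for 6.26%. The fall from 3 to 4 h in N-deprived cells no longer passed without N-deprived 3 h replicate 2 (-0.18, adjusted p = 0.0709) or without N-deprived 4 h replicate 1 (-0.20, adjusted p = 0.0512). The mean level at 6 h was 35.6 ± 0.889 FPKM in N-deprived and 18.8 ± 0.854 FPKM in N-replete cells (SD, n = 3 each).

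From 6 to 12 h DGAT1A rose in both media, by 0.43 (SE 0.069; limma, adjusted p = 1.02e-06) in N-deprived and by 0.61 (SE 0.069; adjusted p = 1.44e-09) in N-replete cells. The median gene moved the other way at this step, by -0.59 in N-deprived and -0.68 in N-replete cells, and rises were called for 20.3% and 18.7% of genes. Relative to the median gene DGAT1A therefore rose by 1.02 in N-deprived and 1.29 in N-replete cells. With median-ratio centring the rise was 1.03 in N-deprived and 1.27 in N-replete cells (limma, adjusted p = 4.37e-16 and 2.13e-18). With quantile normalization it was 0.81 and 1.04 (limma, adjusted p = 1.39e-13 and 3.60e-16). A fall in both media from 3 to 4 and from 4 to 6 h followed by a rise in both to 12 h was called for 137 genes (1.42%) as deposited and for 390 genes (4.04%) with median-ratio centring, DGAT1A included in both.

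From 12 to 24 h the media moved apart. In N-replete cells DGAT1A fell to 21.8 ± 1.93 FPKM at 24 h, against 29.2 ± 0.889 FPKM at 12 h (SD, n = 3 each), a log2 change of -0.41 (SE 0.069; limma, adjusted p = 2.66e-06), while 71.2% of genes rose and 19% fell. In N-deprived cells it was higher at 24 h as deposited, at 55.9 ± 1.15 against 48.4 ± 1.49 FPKM at 12 h (SD, n = 3 each), a log2 change of 0.20 (SE 0.069; limma, adjusted p = 0.00727), while 68.6% of genes rose. The median gene rose by 0.69 in N-deprived and 0.66 in N-replete cells at this step. The direction in N-deprived cells turned with the scaling: it was -0.46 with median-ratio centring (limma, adjusted p = 2.95e-08), -0.12 with quantile normalization (adjusted p = 0.0532) and 0.13 with FPKM rescaled to an equal sum per library (adjusted p = 0.0628). The fall in N-replete cells kept its direction and its call under these scalings, at -0.99, -0.77 and -0.50. A rise in N-deprived and a fall in N-replete cells from 12 to 24 h was called for 1.67% of genes with the values as deposited.

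From 24 to 48 h DGAT1A was higher again in both media, as were 12% of genes. In N-replete cells the level at 48 h was 27.6 ± 1.81 FPKM (SD, n = 3), a log2 change of 0.33 (SE 0.069; limma, adjusted p = 0.000157; 32.8% of genes rose). In N-deprived cells it was 63.6 ± 5.90 FPKM (SD, n = 3), a log2 change of 0.18 (SE 0.069; adjusted p = 0.0435; 19.2% of genes rose). That call in N-deprived cells was lost with median-ratio centring (0.13, adjusted p = 0.0838). It was also lost in 5 of the fits that left out 1 library, which are given at the end. Between the ends of the course, 48 h against 3 h, DGAT1A rose by 0.33 in N-deprived cells (SE 0.069; limma, adjusted p = 9.34e-05; 43.7% of genes rose). In N-replete cells it stood at -0.13 (95% interval -0.27 to 0.01; adjusted p = 0.109; 26.6% of genes fell), and this change of the whole course differed between the media by 0.46 (SE 0.097; limma, adjusted p = 0.000151; 35.3% of genes in this direction). The N-replete change from 3 to 48 h passed with quantile normalization (-0.16, adjusted p = 0.0196) and without N-replete 48 h replicate 3 (-0.18, adjusted p = 0.049; limma).

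**Figure D3:**
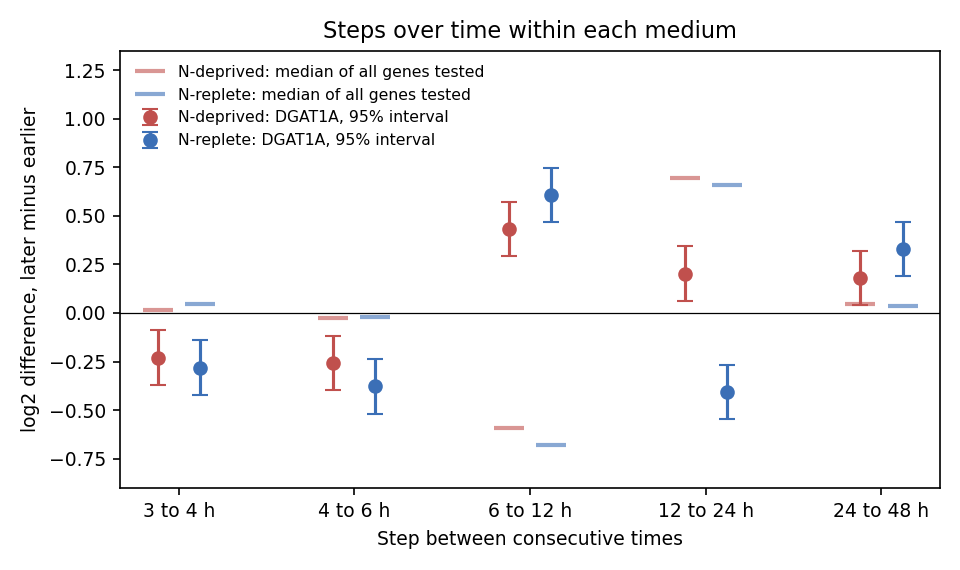
Log2 difference between consecutive times, later minus earlier (y axis), for each step (x axis) in N-deprived (red) and N-replete (blue) cells, with the 95% interval for isotig00738.DGAT1A and the median of all genes tested as a bar. DGAT1A fell where the median gene held its level up to 6 h, rose at 12 h where the median gene fell, and from 12 to 24 h its change lay below that of the median gene in both media.

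In order of level as deposited, the 6 N-deprived groups came before the 6 N-replete groups. N-deprived cells ran from 48 h (63.6 FPKM) through 24 h (55.9 FPKM), 3 h (50.4 FPKM), 12 h (48.4 FPKM) and 4 h (42.8 FPKM) to 6 h (35.6 FPKM). N-replete cells ran from 3 h (30.3 FPKM) through 12 h (29.2 FPKM), 48 h (27.6 FPKM), 4 h (24.8 FPKM) and 24 h (21.8 FPKM) to 6 h (18.8 FPKM). Of the 11 neighbouring pairs in this order, 5 had replicates that overlapped: N-deprived 3 and 12 h, and in N-replete cells 3 and 12 h, 12 and 48 h, 48 and 4 h, and 4 and 24 h. N-deprived 48 and 24 h did not overlap, though by a small margin, with a lowest library of 56.9 FPKM at 48 h and a highest of 56.7 FPKM at 24 h. The place of 12 h turned with the scaling. With median-ratio centring N-deprived 12 h came first, at 6.14 on the log2 scale, and N-replete 12 h, at 5.51, came above N-deprived 4 h (5.32) and 6 h (5.10). After quantile normalization N-deprived 12 h came in place 2, at 5.89, and N-replete 12 h, at 5.29, came above N-deprived 6 h (5.08). The other 5 N-deprived groups stayed above the other 5 N-replete groups under each of these scalings, and in FPKM rescaled to an equal sum all 6 did. The number of overlapping neighbours was 4 with median-ratio centring, 4 with quantile normalization and 6 with rescaled FPKM.

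Against other transcripts DGAT1A was moderately abundant. By its mean FPKM, a measure per length, it ranked between 2008 of 9756 models at 48 h and 3928 at 6 h in N-deprived cells, and between 3361 at 12 h and 6340 at 6 h in N-replete cells. Its mean was 1.28 times the median model at 6 h to 2.43 times at 12 h in N-deprived cells, and 0.692 times at 6 h to 1.58 times at 12 h in N-replete cells. It thus lay above the median model at all 6 times in N-deprived cells, and below it at 4, 6 and 24 h in N-replete cells, where the ratios were 0.918, 0.692 and 0.860. The ratios were highest at 12 h, where the median model was low, at 17.6 to 20.7 FPKM against 24.3 to 30.9 FPKM in the other libraries. As deposited, DGAT1A itself was higher at 24 and 48 h (55.9 and 63.6 FPKM) than at 12 h (48.4 FPKM) in N-deprived cells. In N-replete cells it was at 30.3 FPKM at 3 h and 29.2 FPKM at 12 h.

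Few genes had as much of their variance between the media. Of the variance of DGAT1A over the 36 libraries on the log2(FPKM + 1) scale, 76.7% lay between media, 16.9% between times, 4.95% in the combination of medium and time and 1.45% within groups. For the median gene tested these shares were 4.41%, 79.4%, 7.11% and 3.42%. A share between media at least as high was found for 0.425% of genes. Without the 12 h libraries the share was 76.4% for DGAT1A and 10.6% for the median gene, with 1.52% of genes at least as high. With median-ratio centring over all times it was 56.5%, with 5.38% of genes at least as high, and with quantile normalization 63.4%, with 2.26%. Replicates of DGAT1A were close to each other: the SD within groups was 0.078 on the log2 scale, against 0.119 for the median gene, and 10.1% of genes had a smaller one.

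**Figure D4:**
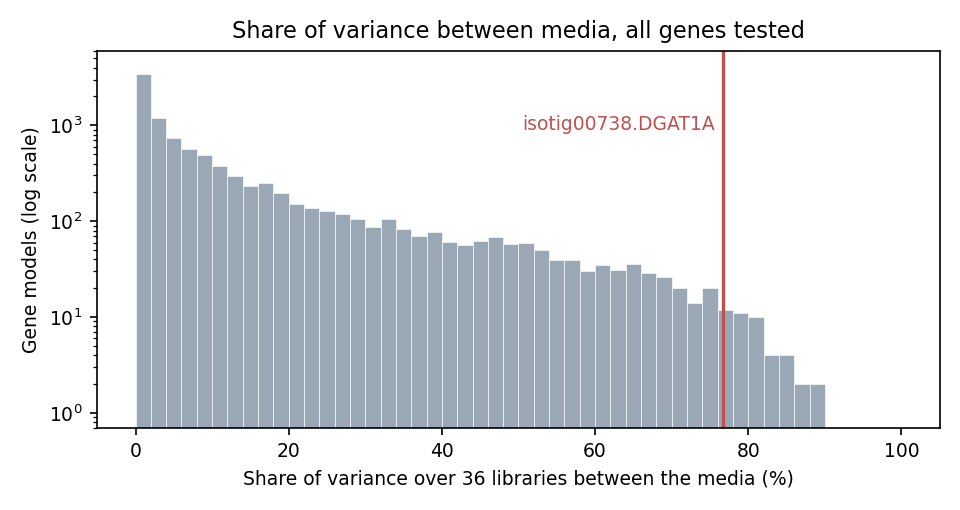
Number of gene models tested (y axis, log scale) by the share of their variance over 36 libraries that lies between N-deprived and N-replete medium (x axis, %), on the log2(FPKM + 1) scale as deposited. The red line marks isotig00738.DGAT1A at 76.7%, with 0.425% of genes at or beyond it.

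The gene model most like DGAT1A was scaffold00259.g7235 (scaffold00259, 103632 to 110731), which the files leave without a name. Over the 12 group means of log2(FPKM + 1), which share their libraries with DGAT1A, Pearson's r was 0.989, the highest among 9302 other models with a mean of at least 5 FPKM, whose median r was 0.055. Its level was also the closest of them all: N-deprived cells held 48.2, 41.0, 37.5, 46.7, 53.6 and 65.5 FPKM of scaffold00259.g7235 in order of time, and N-replete cells 27.6, 24.0, 17.7, 29.4, 21.4 and 22.7 FPKM. The FPKM of DGAT1A divided by that of scaffold00259.g7235 lay between 0.903 and 1.25 in the 36 libraries, with a median of 1.02. The root mean square difference of the 12 group means was 0.10 on the log2 scale, and 0.23 for the next closest model. In order of time, the media differed for scaffold00259.g7235 by 0.79, 0.75, 1.04, 0.64, 1.29 and 1.49 on the log2 scale (SE 0.090 each). The adjusted p was 1.63e-08, 5.38e-08, 5.98e-11, 3.19e-07, 8.15e-14 and 1.67e-15 (limma). The models departed most in N-replete cells at 48 h, where the ratio of group means was 1.22, against 0.950 to 1.10 in the other groups. From 24 to 48 h the effect thus went from 1.29 to 1.49 for scaffold00259.g7235 and from 1.32 to 1.17 for DGAT1A. This difference between the models was not tested.

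This match stayed when the 12 h groups were left out (r = 0.990) and with median-ratio centring (r = 0.991), and scaffold00259.g7235 was the model most like DGAT1A in both cases. Over the 36 libraries, the deviations of both models from their group means had an r of 0.393. That put scaffold00259.g7235 in place 1769, and the highest r was 0.747. Replicates differ far less than groups, with an SD within groups of 0.078 on the log2 scale for DGAT1A. This r is therefore not comparable with that over group means. It was taken without centring, so shifts shared by all genes of a library enter it, and it cannot decide whether the models are separate. Cufflinks can split fragments that match several models, and no sequence of either model was used here, so whether they share sequence or fragments was not tested.

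**Figure D5:**
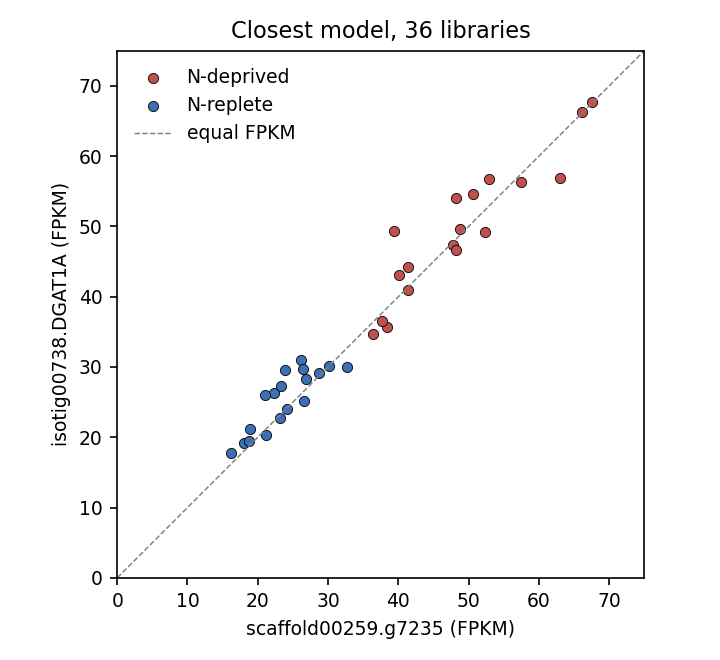
FPKM of isotig00738.DGAT1A (y axis) against scaffold00259.g7235 (x axis), the gene model closest to it, in 18 N-deprived (red) and 18 N-replete (blue) libraries, with the line of equal FPKM. Points lie along that line, with ratios between 0.903 and 1.25.

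The next model on the scaffold, scaffold00259.g7236 (110780 to 119301), starts 48 bp after scaffold00259.g7235 ends and was the fourth most like DGAT1A, with an r of 0.957. Its level was lower, at 14.9 FPKM in N-deprived and 8.18 FPKM in N-replete cells at 3 h, and 27.3 and 5.36 FPKM at 48 h. The models on either side of this pair, scaffold00259.g7234 and scaffold00259.g7237, had r of -0.0033 and -0.10. Reads carry no strand in these libraries, so fragments of abutting models cannot be told apart by strand.

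Of the other models most like DGAT1A, scaffold00165.g5319 (scaffold00165, 14772 to 21011; r = 0.965), scaffold00267.g7790 (scaffold00267, 783440 to 784883; r = 0.958) and scaffold00009.g363 (scaffold00009, 100526 to 103563; r = 0.943) had larger mean effects, which were not tested against that of DGAT1A. Their mean log2 difference over the 6 times was 1.67, 1.50 and 1.80 (limma, adjusted p = 3.13e-23, 3.92e-27 and 1.09e-29), against 0.93 for DGAT1A. In all 32 models had an r over 0.9. Of the 5 models most like DGAT1A, 1 was still among the first 5 without the 12 h groups and 2 with median-ratio centring. The r of scaffold00165.g5319, scaffold00267.g7790 and scaffold00009.g363 was 0.967, 0.964 and 0.976 without the 12 h groups, and 0.930, 0.925 and 0.981 with centring. The most opposite courses were those of scaffold00084.g3189 (scaffold00084, 88596 to 90161; r = -0.945) and scaffold00271.g8190 (scaffold00271, 841930 to 846364; r = -0.938), whose mean log2 differences were -1.30 and -0.55 (limma, adjusted p = 1.30e-27 and 2.22e-19). With median-ratio centring their r was -0.75 and -0.52.

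By the 6 effects alone, without the levels, the closest models were scaffold00079.g2487 (scaffold00079, 3477 to 4227), scaffold00214.g6191 (scaffold00214, 397200 to 397504) and again scaffold00259.g7235, with root mean square differences of 0.096, 0.14 and 0.15 on the log2 scale. The scaffold00079.g2487 and scaffold00214.g6191 models were less like it in their course: over the 12 group means their r with DGAT1A was 0.70 and 0.73. N-deprived cells held 10.3 FPKM of scaffold00079.g2487 at 6 h and 8.01 FPKM at 3 h, and N-replete cells 5.54 and 4.48 FPKM, where DGAT1A was lower at 6 h than at 3 h in both media.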

How the data were processed

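The labels' protocols describe poly(A) RNA of whole cells, broken and primed with random hexamers, in strand-nonspecific libraries read as 90 bp pairs. The molecule is labelled as nuclear RNA. Deposited values are in FPKM for each gene model. The submitters' processing notes name the tools TopHat2 (version 2.0.4) and Cufflinks (version 2.0.2), with no role or setting. Values in the 36 library tables and in the joint table were equal (0 differing). FPKM is a share of each library, so a change of abundant transcripts moves all others. Of 9756 identifiers 0 matched the reference table of 160 organelle genes (assembly ASM5162214v2).

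Values were taken as log2(FPKM + 1). Models reaching 1 FPKM in 3 or more libraries (9647) entered limma (version 3.58.1, R 4.3.3), which estimated 12 group means with a prior variance that follows the mean level. Benjamini-Hochberg adjustment ran over all of them within each comparison. The fit was run on simulated data with independent normal errors and known changes in the N-deprived 24 h libraries alone. These data held no shift of whole libraries, such as that of 12 h, and do not test the model under one. Fold changes on this scale are slightly understated. Models most like DGAT1A were named by rule: the 5 with the highest and the 2 with the lowest Pearson's r over 12 group means, and the 3 with the closest effects, among models with a mean of at least 5 FPKM. The neighbours of the closest model, the shares of variance, the separation of libraries and the joint counts of steps were chosen after values were seen. The gene, the list of lipid genes and the comparisons were chosen with earlier results of these data known.

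Replicates were distinct (at most 0.01% of values equal between a pair). Same-numbered libraries did not deviate together gene by gene: the correlation of deviations between media at 1 time averaged 0.023 (-0.274 to 0.413). Between 2 times it averaged -0.032 in N-deprived and 0.005 in N-replete cells, and the number was not used as a block in the main model. A shift shared by all genes of a library does not show in this correlation. Replicate 3 had the highest sum and median of FPKM in its group at every N-replete time. At every N-deprived time it had the lowest of both. Where cultures were sampled repeatedly, libraries of 1 medium are not independent and the p-value of an effect averaged over time is too small. Alternatives were other pseudocounts, scalings, filters and priors, fits within a time or medium, a replicate block, and leaving out each library.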

Additional observations from a re-analysis of the deposited data

Results flagged for a closer look

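The effect of N deprivation on DGAT1A, as the log2 difference of N-deprived minus N-replete cells, differed between times by tests of the difference itself. The interaction of medium and time had an adjusted p of 1.16e-06 (limma F test). The effect at 24 h exceeded that at 12 h by 0.61, that at 48 h exceeded that at 3 h by 0.46, and the mean of the last 3 times exceeded that of the first 3 by 0.28. The step from 12 to 24 h involves the 12 h libraries, whose median level stood apart in both media, and that growth was 0.53 with median-ratio centring, 0.64 with quantile normalization and 0.62 with FPKM rescaled to an equal sum. The mean of the last 3 times uses these libraries too. Its excess was 0.19 with median-ratio centring, 0.27 with quantile normalization and 0.34 with FPKM rescaled to an equal sum. The comparison of 48 with 3 h uses none of the 12 h libraries.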

How the results depend on the processing

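The effect at each of the 6 times and their mean kept their direction and stayed past an adjusted p of 0.05 under all settings of the linear model that were run. In the exact permutation tests, which cannot go below 0.1 with 3 against 3, the same log2 differences of 0.71, 0.77, 0.89, 0.71, 1.32 and 1.17, and 0.93 for the mean, did not pass. Of 339 values under settings other than leaving out a library, 321 were counted as the same. For tested values this meant the same direction, where there is one, and the same side of the threshold. The 339 also include ranks of the mean effect and numbers of shared models, which were judged by closeness to the main value. In N-deprived cells the step from 12 to 24 h was -0.46 with median-ratio centring, -0.12 after quantile normalization and 0.13 with FPKM rescaled to an equal sum per library. The step from 24 to 48 h in N-deprived cells was 0.13 with median-ratio centring, and 0.18 with the replicate number as a block, where its adjusted p was 0.0525. The replicate block changed no other call, nor did culture as a random effect (correlation 0.122). The change of the effect from 6 to 12 h was -0.24 with median-ratio centring and -0.23 after quantile normalization, both past the threshold, and that from 24 to 48 h was -0.23 with rescaled FPKM. In N-replete cells 48 h against 3 h was -0.16 with quantile normalization (adjusted p = 0.0196). The cause was not tested.

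Leaving out each of 36 libraries in turn changed 9 of 1044 values. The step from 3 to 4 h in N-deprived cells ran from -0.27 to -0.18. That from 24 to 48 h in N-deprived cells ran from 0.13 to 0.26 and lost its call without any 1 of the 3 libraries of 24 h (adjusted p = 0.0775, 0.128 and 0.066) and without replicate 1 or 2 of 48 h (adjusted p = 0.207 and 0.163). In N-replete cells 48 h against 3 h ran from -0.18 to -0.087, and passed without N-replete 48 h replicate 3 (adjusted p = 0.049). The change of the effect from 3 to 4 h ran from -0.0038 to 0.10 and did not pass in any of these fits. Without all 12 h libraries, a setting chosen after seeing the data, no call changed among the comparisons that use none of them. The mean effect, the late minus early effect, the F tests and the steps to and from 12 h need these libraries. They were not fitted in that setting. The joint count of falls to 6 h and rises to 12 h in both media, 137 genes as deposited, was 390 with median-ratio centring, 334 after quantile normalization and 165 in rescaled FPKM, settings also chosen after seeing the data. Of the 5 models most like DGAT1A, 5 were shared over the 36 libraries, 1 without the 12 h groups and 2 with median-ratio centring, and scaffold00259.g7235 came first in each.

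Depth is known only in relative terms, and 3 libraries a group limit the precision of each level.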
